A study of Mus musculus with 50 samples.

Results

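Interleukin 6, interleukin 10, their specific receptor chains and 4 members of the suppressor of cytokine signalling (SOCS) family were followed in mouse spleen after injection of CpG oligodeoxynucleotides (ODN). The 8 genes (Il6, Il6ra, Il10, Il10ra, Socs1, Socs2, Socs3 and Cish) were taken by their annotated symbols, among 15312 named genes with a measured probe. All 8 were measured, by 11 of the 36607 probes on the array. Il6ra had 3 probes, Socs1 had 2 and each of the others had 1. A single probe stood for each gene in the tests, the one with most values or, on ties, the first listed. The first 2 probes of Il6ra tied, with values on 50 arrays each, so listing order chose between them.

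Each of the 50 two-colour arrays compared RNA of a female spleen, in Cy5, with a Universal Mouse Reference RNA, a pool from mouse cell types and tissues, in Cy3. Spleens of BALB/c WT mice were taken at 0.5, 1 or 3 h, or at 9, 24 or 72 h, after 400 µg of a CpG ODN mixture given intraperitoneally (n = 4 arrays per time), 3 h after the same amount of a control ODN mixture (n = 4), or from untreated mice (n = 6). C57BL/6 TNF-KO mice, which carry a knockout of tumor necrosis factor, and C57BL/6 control mice were taken 3 h after CpG ODN or untreated (4 groups of n = 4 arrays). The labels used here give no age for any group and no dose for the C57BL/6 mice. A second label field calls all 8 C57BL/6 CpG arrays untreated, so the groups follow the titles, and no group of injected vehicle was among the samples. A value, called a level here, is the log2 of spleen over reference signal, centred per array. A level of 0 means the same signal as in the reference RNA, and levels of different probes are not set against each other.

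Interleukin 6 is an inflammatory cytokine that binds the receptor chain encoded by Il6ra together with the shared chain gp130, encoded by Il6st. Interleukin 10 restrains macrophages and dendritic cells through the chains encoded by Il10ra and Il10rb. Both receptors signal through Janus kinases (JAK) and the transcription factor STAT3, which induces Socs3. SOCS3 binds gp130 and stops signalling from it, SOCS1 inhibits JAKs downstream of interferon receptors, and SOCS2 and CIS, the product of Cish, are best known as targets of STAT5 that dampen growth hormone and related cytokines. Toll-like receptor 9, the receptor of CpG ODN, is found in mouse B cells, dendritic cells and macrophages.

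The ODN of both mixtures are shown because they define the treatments. Capitals mark the CG dinucleotides, the feature that the CpG mixture carries in both of its ODN.
CpG ODN 1555: gctagaCGttagCGt
CpG ODN 1466: tcaaCGttga
Control ODN 1612: gctagatgttagCGt
Control ODN 1471: tcaagcttga
The control mixture is not free of CG, since ODN 1612 keeps 1 of the 2 such dinucleotides of ODN 1555.

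Promoter sequences are shown for 3 genes, as the bases just before the start of their entry in the RefSeq promoter table (build GRCm38.p6). These are the genes with an entry that were higher at both 1 and 3 h after CpG ODN in BALB/c spleens. For Socs3 the start of the entry lies within the annotated gene (chr11:117966079-117970336), so its window lies inside the gene. Of the 8 genes, 5 had an entry there. Capitals mark matches to 4 motifs searched on both strands.
Il6 (chr5:30012864-30013113, plus strand): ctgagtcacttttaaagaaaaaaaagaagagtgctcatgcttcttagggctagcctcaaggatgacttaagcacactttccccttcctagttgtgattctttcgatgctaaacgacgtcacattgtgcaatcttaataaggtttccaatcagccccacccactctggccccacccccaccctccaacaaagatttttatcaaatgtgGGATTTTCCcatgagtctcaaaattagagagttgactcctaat
Socs1 (chr16:10785537-10785786, minus strand): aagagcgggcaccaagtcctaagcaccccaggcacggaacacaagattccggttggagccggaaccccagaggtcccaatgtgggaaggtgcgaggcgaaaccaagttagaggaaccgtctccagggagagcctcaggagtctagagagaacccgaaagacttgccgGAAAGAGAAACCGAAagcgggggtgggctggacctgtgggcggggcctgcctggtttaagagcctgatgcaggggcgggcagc
Socs3 (chr11:117969367-117969616, minus strand): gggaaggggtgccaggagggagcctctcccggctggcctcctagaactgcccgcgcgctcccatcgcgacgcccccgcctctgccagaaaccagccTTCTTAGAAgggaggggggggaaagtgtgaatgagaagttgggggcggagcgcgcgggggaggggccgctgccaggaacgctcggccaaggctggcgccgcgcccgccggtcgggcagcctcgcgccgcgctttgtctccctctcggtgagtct
The STAT motif TTCNNNGAA was matched in Socs3, at bases 154 to 146 before the start of its entry, as in 7.02% of 32851 promoters. The kappa B motif GGNNTTTCC was matched in Il6, at bases 43 to 35 before the start, as in 4.93% of promoters. The interferon response motif GAAANNGAA had 2 overlapping matches in Socs1, at bases 83 to 75 and 77 to 69 before the start, and at least 1 match in 7.13% of promoters. TGACGTCA, the cyclic AMP response motif, is held by 1.55% of promoters and was matched in none of the 5. Il6ra and Cish, the other genes with an entry, held none of the 4 motifs in these windows.

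The arrays carried between 27619 and 30590 measured probes, and the lowest correlation of any 2 arrays was 0.66. Tnf, the targeted gene, had levels of -0.45, -0.35, -0.31 and 0.43 in TNF-KO spleens after CpG ODN, against 3.16, 3.61, 4.30 and 4.59 in C57BL/6 control spleens after CpG ODN. Untreated, they were -0.61, -0.30, -0.09 and 0.09 in TNF-KO spleens, against 0.58, 0.62, 0.77 and 0.78 in C57BL/6 control spleens. Transcripts of pancreas, an organ that adjoins the spleen, varied within groups: the mean level over 19 markers ran between 0.10 and 6.63 over all arrays. No pancreas marker passed the test in any comparison. Whole spleen was measured, so that more RNA per cell and more cells of a type cannot be told apart.

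Il6, Socs3 and Socs1 were higher from 1 h after CpG ODN in BALB/c spleens, Il10 from 3 h, and the only receptor call was Il6ra, lower at 72 h. A gene was called changed at an adjusted p under 0.05 in limma, over all genes of the comparison. No member was called at 0.5 h, where 0.256% of 15264 genes were called. At 1 h 4 of 8 members were called, all higher, against 3.3% of all genes. At 3 h 4 of 8 were called, all higher, against 9.96%. At 9 h 5 of 8 were called higher, against 6.96%, and at 24 h 4 of 8 were called higher, against 8.44%. At 72 h 3 of 8 were called higher and 1 lower, against 10.6%. Shares of all genes are for calls in either direction. Where groups are said not to overlap, the share of all genes without overlap was not counted. All 6 comparisons share the same 6 untreated arrays, so their counts are not independent.

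**Figure D1:**
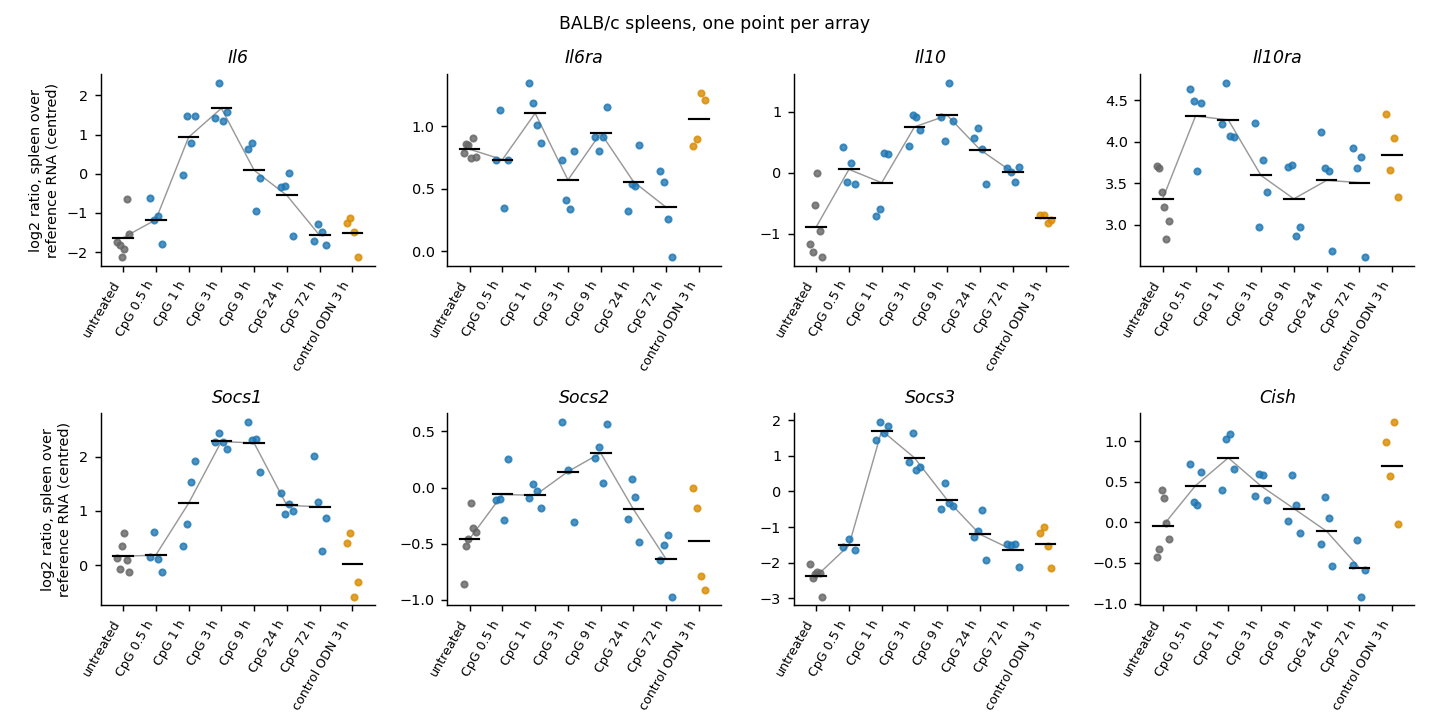
Levels (log2 ratio of spleen over reference RNA, y axis) of the 8 genes in every BALB/c array, for untreated spleens, the 6 times after CpG ODN and control ODN at 3 h (x axis). Points are arrays, black bars group means, and the grey line joins the means of the time course. Socs3 is highest at 1 h, with all 4 arrays between 1.44 and 1.94, and Il6 at 3 h, between 1.36 and 2.32.

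Il6 was higher at 1 h and had its highest mean at 3 h. Its levels at 1 h were -0.02, 0.79, 1.49 and 1.49, and at 3 h 1.36, 1.43, 1.59 and 2.32. In untreated spleens the lowest, median and highest levels were -2.12, -1.78 and -0.65. Every array at 1 and 3 h lay above every untreated array. The difference from untreated spleens was 2.57 ± 0.34 (log2 difference ± SE) at 1 h, or 5.93-fold (limma adjusted p = 3.17e-06), and 3.31 ± 0.34 at 3 h, or 9.89-fold (adjusted p = 4.72e-09).

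After 3 h Il6 declined towards the untreated level. Levels were -0.94, -0.12, 0.63 and 0.79 at 9 h, -1.59, -0.33, -0.32 and 0.03 at 24 h, and -1.83, -1.70, -1.49 and -1.27 at 72 h. The groups at 9 and 24 h overlapped the untreated arrays by 1 array at their low end, and at 72 h all 4 arrays lay within the untreated range. The differences from untreated spleens were 1.72 ± 0.34 at 9 h (adjusted p = 0.000618), 1.08 ± 0.34 at 24 h (adjusted p = 0.0412) and 0.06 ± 0.34 at 72 h (adjusted p = 0.926). The call at 24 h was lost without any of 8 of the 10 arrays involved, with adjusted p of up to 0.205 without replicate 3 at 24 h, where the difference was 0.89. At 0.5 h the levels of -1.80, -1.19, -1.08 and -0.62 gave a difference of 0.46 ± 0.34 that did not pass (adjusted p = 0.575).

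Il10 was called higher from 3 h through 72 h. Levels in untreated spleens had a lowest, median and highest value of -1.39, -1.06 and 0.00. They were -0.19, -0.16, 0.15 and 0.42 at 0.5 h, -0.70, -0.59, 0.31 and 0.32 at 1 h, and 0.45, 0.70, 0.92 and 0.94 at 3 h. The arrays at 3 h all lay above the untreated arrays, while those at 0.5 and 1 h overlapped them. At 3 h the difference was 1.64 ± 0.24, or 3.13-fold (adjusted p = 3.54e-06).

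At 9 h Il10 levels were 0.53, 0.85, 0.91 and 1.48, the highest group mean of the time course at 0.94 ± 0.39 (SD, n = 4). They were -0.19, 0.39, 0.58 and 0.74 at 24 h and -0.16, 0.01, 0.08 and 0.09 at 72 h. All arrays at 9 h lay above the untreated arrays, while at 24 and 72 h 1 array each lay below the highest untreated array. The differences were 1.83 ± 0.24 at 9 h (adjusted p = 7.33e-07), 1.27 ± 0.24 at 24 h (adjusted p = 0.000412) and 0.90 ± 0.24 at 72 h (adjusted p = 0.0143). At 0.5 h the difference of 0.95 ± 0.24 missed the threshold (adjusted p = 0.104), and without untreated replicate 4, the highest of that group, it was 1.12 and passed (adjusted p = 0.00877).

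Il10 at 1 h differed between array runs, meaning runs of adjacent database numbers in the titles. The pooled difference was 0.73 ± 0.24 (adjusted p = 0.0861). Within the run that held replicates 1 and 2 and 5 untreated arrays it was 0.16, and within the run that held replicates 3 and 4 and 1 untreated array it was 1.62. It passed without 1 h replicate 1, at 0.91 (adjusted p = 0.0467), and without untreated replicate 4, at 0.90 (adjusted p = 0.0132).

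For the receptor gene Il6ra, mean levels of the representing probe were 0.73 ± 0.32 at 0.5 h, 1.10 ± 0.21 at 1 h, 0.57 ± 0.23 at 3 h, 0.95 ± 0.15 at 9 h, 0.56 ± 0.22 at 24 h and 0.35 ± 0.31 at 72 h (SD, n = 4 each), against 0.82 ± 0.06 in untreated spleens (n = 6). The call at 72 h was the only one against untreated spleens. Levels there were -0.05, 0.26, 0.55 and 0.65, all below the untreated range of 0.74 to 0.90, and the difference was -0.46 ± 0.15 (adjusted p = 0.0461).

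The call was lost without any of 9 of the 10 arrays, with adjusted p of up to 0.150 without 72 h replicate 4, where the difference was -0.33. The other 2 probes of Il6ra gave -0.42 (adjusted p = 0.166) and -0.30 (adjusted p = 0.495) at 72 h when every probe was tested on its own. The second probe was lower at 24 h instead, by a difference of -0.65 ± 0.19 (adjusted p = 0.0375), where the representing probe had -0.26 (adjusted p = 0.334).

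Il10ra levels were 3.65, 4.46, 4.48 and 4.64 at 0.5 h and 4.06, 4.06, 4.22 and 4.71 at 1 h, against a lowest, median and highest of 2.83, 3.31 and 3.70 in untreated spleens. All arrays at 1 h and 3 of 4 at 0.5 h lay above every untreated array. The differences of 0.995 ± 0.28 at 0.5 h (adjusted p = 0.277) and 0.95 ± 0.28 at 1 h (adjusted p = 0.0593) did not pass. The difference at 1 h passed when arrays were weighted by quality, at 0.85 (adjusted p = 0.0103), or when only the compared groups were fitted (adjusted p = 0.0149). It was 0.37 when arrays were scaled to the same spread (adjusted p = 0.672). Later means, between 3.31 ± 0.46 at 9 h and 3.59 ± 0.53 at 3 h (SD, n = 4 each), overlapped the untreated arrays.

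Socs3 showed the largest difference of the 8 genes. Its levels at 1 h were 1.44, 1.63, 1.82 and 1.94, and in untreated spleens the lowest, median and highest were -2.96, -2.31 and -2.03. No array of either group came near the other group. The difference was 4.09 ± 0.24, or 17.1-fold (adjusted p = 3.7e-14), the sixth smallest p of all genes at 1 h. It was 4.06 within the run of replicates 1 and 2 and 4.17 within the run of replicates 3 and 4.

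Mean Socs3 levels were lower at each later time and differed from untreated spleens through 72 h. Levels were 0.61, 0.70, 0.82 and 1.64 at 3 h, -0.48, -0.40, -0.34 and 0.25 at 9 h, -1.91, -1.28, -1.10 and -0.52 at 24 h, and -2.11, -1.51, -1.49 and -1.48 at 72 h. Up to 24 h every array lay above every untreated array, and at 72 h 1 array lay within their range. Differences from untreated spleens were 3.33 ± 0.24 at 3 h (adjusted p = 1.63e-12), 2.14 ± 0.24 at 9 h (adjusted p = 5.1e-08), 1.18 ± 0.24 at 24 h (adjusted p = 0.00125) and 0.74 ± 0.24 at 72 h (adjusted p = 0.0427).

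The Socs3 call at 72 h was lost without any of 8 of the 10 arrays, with adjusted p of up to 0.134 without 72 h replicate 3, where the difference was 0.68. At 0.5 h the 3 measured arrays, at -1.65, -1.56 and -1.34, lay above every untreated array. Their difference of 0.87 ± 0.26 had an adjusted p of 0.349. When arrays were weighted by quality it was 0.89 and passed (adjusted p = 0.0494).

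Socs1 was higher at 1 h and had its highest means at 3 and 9 h. Its levels were 0.35, 0.77, 1.53 and 1.92 at 1 h, 2.14, 2.27, 2.27 and 2.43 at 3 h, and 1.72, 2.31, 2.33 and 2.63 at 9 h. In untreated spleens the lowest, median and highest were -0.12, 0.12 and 0.60. The groups at 3 and 9 h lay wholly above the untreated arrays, and at 1 h 1 array overlapped them. Differences were 0.98 ± 0.27 at 1 h (adjusted p = 0.0371), 2.11 ± 0.27 at 3 h, or 4.33-fold (adjusted p = 5.26e-07), and 2.08 ± 0.27 at 9 h (adjusted p = 1.03e-06).

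The 1 h value of Socs1 differed between array runs, at 0.35 within the run of replicates 1 and 2 and 1.80 within the run of replicates 3 and 4. Its call was lost without any of 6 of the 10 arrays, with adjusted p of up to 0.151 without 1 h replicate 4, where the difference was 0.72. The other Socs1 probe gave 1.36 ± 0.23 at 1 h (adjusted p = 0.000367), 1.87 ± 0.23 at 3 h, 1.56 ± 0.23 at 9 h and 0.88 ± 0.23 at 24 h, which all passed, and 0.57 ± 0.23 at 72 h, which did not (adjusted p = 0.114). At 24 h levels were 0.95, 1.01, 1.13 and 1.32, all above the untreated arrays, with a difference of 0.94 ± 0.27 (adjusted p = 0.0275). At 72 h levels spread over 0.26, 0.88, 1.16 and 2.02, with a difference of 0.91 ± 0.27 (adjusted p = 0.0294). That call was lost without 72 h replicate 1, where the difference was 0.60 (adjusted p = 0.172), and without 3 others of the 10 arrays. The 24 h call was lost without 24 h replicate 3 (0.93, adjusted p = 0.0866) and 3 others.

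Socs2 and Cish, the SOCS genes tied to STAT5, each passed at a single time against untreated BALB/c spleens. Socs2 levels at 9 h were 0.04, 0.26, 0.36 and 0.56, all above the untreated range of -0.86 to -0.14, and the difference was 0.76 ± 0.18, or 1.70-fold (adjusted p = 0.00572). At 3 h its 3 measured arrays, at -0.31, 0.15 and 0.58, gave a difference of 0.60 ± 0.20 (adjusted p = 0.0511). That value passed without 3 h replicate 4, at 0.82 (adjusted p = 0.013), or without untreated replicate 4, at 0.66 (adjusted p = 0.034). At 72 h the mean Socs2 level was -0.64 ± 0.24, against -0.46 ± 0.24 in untreated spleens (SD, n = 4 and 6).

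Cish levels at 1 h were 0.40, 0.66, 1.02 and 1.09, just above the untreated range of -0.43 to 0.40. The difference was 0.84 ± 0.21, or 1.79-fold (adjusted p = 0.0186). It was 0.70 within the run of replicates 1 and 2 and 1.21 within the run of replicates 3 and 4. Without 1 h replicate 2, 1 h replicate 3 or untreated replicate 1 the differences were 0.76, 0.74 and 0.76 and did not pass (adjusted p = 0.106, 0.0783 and 0.0529). At 72 h the Cish levels were -0.92, -0.58, -0.52 and -0.22, and the difference of -0.52 ± 0.21 did not pass (adjusted p = 0.11).

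**Figure D2:**
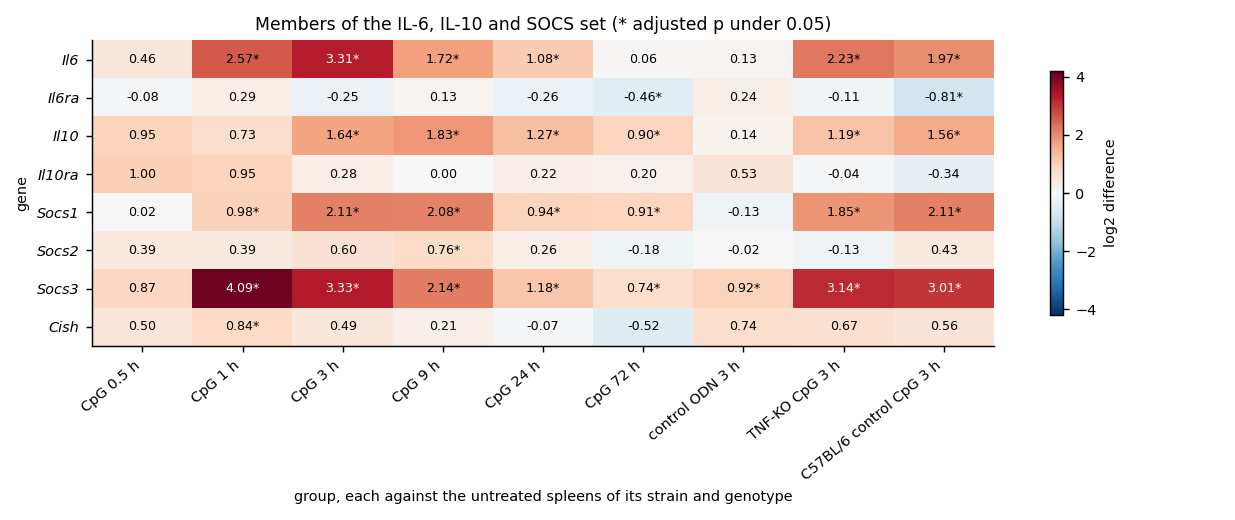
Log2 differences of the 8 genes (rows) from the untreated spleens of the same strain and genotype, in 9 groups (columns), with colour and number giving the difference and a star an adjusted p under 0.05. Socs3 has the largest difference, 4.09 at 1 h, and the row of Il10ra holds no star.

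None of the arrays at 9 and 24 h shared an array run with an untreated array, and the arrays at 72 h and of control ODN had a run to themselves. In a fit with the run as a fixed block, chosen after seeing the data, the 9 h differences rest on runs linked through the 3 h arrays. They were 1.22 for Il6, 1.70 for Il10, 1.52 for Socs1, 0.17 for Socs2 and 1.57 for Socs3 at 9 h, with adjusted p of 0.685, 0.103, 0.312, 0.978 and 0.162. At 24 h they were 0.50 for Il6, 1.07 for Il10, 0.30 for Socs1 and 0.64 for Socs3, with adjusted p of 0.827, 0.355, 0.874 and 0.64. No member passed at either time in that fit. At 3 h the 4 calls were kept, and for the pair of 3 h arrays in the run with 1 untreated array the differences were 3.29 for Il6, 2.12 for Il10, 2.28 for Socs1 and 3.09 for Socs3. At 72 h and for control ODN against untreated spleens, run and group cannot be told apart.

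Neutrophil markers moved over the same hours. Of 12 measured, 7 were higher at 1 h, 5 at 3 h, 5 at 9 h, 3 at 24 h, 3 at 72 h and 3 after control ODN at 3 h, and none was lower. Their mean level ran between 3.29 and 4.08 at 1 h and between 3.00 and 3.19 at 3 h, against 1.81 to 2.73 in untreated spleens. It was between 2.33 and 3.83 after control ODN. Among 13 monocyte and macrophage markers 1 was higher at 0.5 h, 2 at 1 h, 2 at 3 h, 3 at 9 h, 4 at 24 h and 3 at 72 h, and 1 was lower at 9 h. After control ODN 1 was higher, and the mean level over the 13 ran between 2.85 and 3.66 there. It ran between 2.96 and 3.24 at 3 h after CpG ODN, against 2.33 to 2.92 in untreated spleens. The shares of all genes called were 0.256% at 0.5 h, 3.3% at 1 h, 9.96% at 3 h and 6.96% at 9 h. They were 8.44% at 24 h, 10.6% at 72 h and 1.42% after control ODN.

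Markers of other cells moved as well. At 1 h 3 of 7 platelet markers were higher, with a median array mean of 2.75 and every array above the untreated 1.73 to 2.29. Of 9 T cell markers 2 were lower at 9 h and 3 at 72 h, and their mean level, 1.37 to 1.92 at 9 h and 1.54 to 1.88 at 72 h, lay below the untreated 1.99 to 2.48. At 24 h 3 of 8 erythroid markers were lower, with a mean level between 3.37 and 4.22, against 4.36 to 4.67 in untreated spleens. At 72 h 3 of 9 natural killer (NK) cell markers were higher, with a mean level between 3.51 and 4.13, against 2.38 to 3.41, and 2 of 9 B cell markers were lower. Of all genes, 3.3% were called at 1 h, 6.96% at 9 h, 8.44% at 24 h and 10.6% at 72 h. The part of all these cells in the values of the 8 genes was not tested.

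Tests between successive times placed the steps. From 0.5 to 1 h 2 of 8 members were called higher, against 0.694% of all genes called, Socs3 by 3.22 ± 0.28 (adjusted p = 7.22e-09) and Il6 by 2.11 ± 0.37 (adjusted p = 0.00146). Between 1 and 3 h 3 of 8 were called, against 10.1%. Socs1 was higher at 3 h by 1.14 ± 0.30 (adjusted p = 0.0122) and Il10 by 0.92 ± 0.26 (adjusted p = 0.0191), and Il6ra was lower by -0.53 ± 0.17 (adjusted p = 0.0367). Socs3 at 3 against 1 h, at -0.77 ± 0.26, missed the threshold (adjusted p = 0.0566), and passed without 3 h replicate 2, at -0.998 (adjusted p = 0.0175).

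All calls at later steps were downward. At 9 against 3 h 2 of 8 members were called lower, against 0.996% of all genes called, Il6 by -1.58 ± 0.37 (adjusted p = 0.026) and Socs3 by -1.18 ± 0.26 (adjusted p = 0.0153). At 24 against 9 h Socs1, by -1.15 ± 0.30 (adjusted p = 0.0178), and Socs3, by -0.96 ± 0.26 (adjusted p = 0.0228), were called lower, 2 of 8 members against 6.92%. No member was called at 72 against 24 h, where 3.32% of genes were. For Il10 the differences of 0.19 ± 0.26 at 9 against 3 h (95% interval -0.34 to 0.71) and -0.56 ± 0.26 at 24 against 9 h did not pass (adjusted p = 0.928 and 0.18).

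Array runs bore on the steps as well. With array run as a fixed block none of the calls at 3 against 1 h passed, at 0.81 for Socs1 (adjusted p = 0.374), 0.83 for Il10 (adjusted p = 0.273) and -0.46 for Il6ra (adjusted p = 0.379). Within the run that held 2 arrays of each time the differences were 0.48 for Socs1, 0.50 for Il10 and -0.37 for Il6ra. The other Socs1 probe did not pass at 3 against 1 h (0.51, adjusted p = 0.234) or at 24 against 9 h (-0.68, adjusted p = 0.108). Neither did the other probes of Il6ra at 3 against 1 h, at -0.28 (adjusted p = 0.467) and -0.68 (adjusted p = 0.145).

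The step calls were also sensitive to single arrays. Without 1 h replicate 1, the calls of Il6ra (-0.45, adjusted p = 0.143), Il10 (0.74, adjusted p = 0.108) and Socs1 (0.87, adjusted p = 0.0877) at 3 against 1 h were lost. Without 3 h replicate 2, those of Il6 (-1.37, adjusted p = 0.133) and Socs3 (-0.95, adjusted p = 0.108) at 9 against 3 h were lost. At 24 against 9 h the Socs1 call was lost without 9 h replicate 1 (-1.02, adjusted p = 0.064) and the Socs3 call without 9 h replicate 2 (-0.80, adjusted p = 0.0736). Both calls from 0.5 to 1 h were kept without any single array.

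At 3 h after control ODN the differences from untreated spleens were 0.13 for Il6 (95% interval -0.557 to 0.818), 0.14 for Il10 (-0.338 to 0.622) and -0.13 for Socs1 (-0.689 to 0.425), and none passed (adjusted p = 0.849, 0.754 and 0.807). Socs3 was the 1 member of 8 called against untreated spleens, where 1.42% of genes were called. Its levels after control ODN were -2.16, -1.52, -1.18 and -0.998, of which 3 lay above every untreated array, and the difference was 0.92 ± 0.24, or 1.89-fold (adjusted p = 0.0476). The call was lost without any of 7 of the 10 arrays, with adjusted p of up to 0.212 without control ODN replicate 1, where the difference was 0.82. It was lost in 6 of the 8 other alternatives as well. Cish levels of -0.02, 0.57, 0.98 and 1.23 gave a difference of 0.74 ± 0.21 (adjusted p = 0.0644), which passed without control ODN replicate 4, at 0.97 (adjusted p = 0.00528).

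Set directly against control ODN at 3 h, CpG ODN changed 6 of 8 members, against 18.3% of all genes. Il6 levels were 1.36, 1.43, 1.59 and 2.32 after CpG ODN, against -2.13, -1.49, -1.27 and -1.12 after control ODN, a difference of 3.18 ± 0.37, or 9.04-fold (adjusted p = 1.1e-07). Socs3 was higher by 2.41 ± 0.26 (adjusted p = 3.17e-08), Socs1 by 2.25 ± 0.30 (adjusted p = 1.57e-06) and Il10 by 1.502 ± 0.26 (adjusted p = 8.11e-05). For these 4 genes, and for the representing probe of Il6ra, no array after CpG ODN overlapped an array after control ODN. The share of all genes without such overlap was not counted. Every array of the CpG group was in another array run than those of the control ODN group, so that run and treatment cannot be told apart here.

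The remaining calls in that comparison were small. Socs2 was higher after CpG than after control ODN by 0.61 ± 0.21 (adjusted p = 0.043) and Il6ra was lower by -0.48 ± 0.17 (adjusted p = 0.0404). Levels of Il6ra were 0.33, 0.41, 0.73 and 0.80 after CpG ODN, against 0.84, 0.90, 1.21 and 1.26 after control ODN. Its other probes gave -0.10 ± 0.21 (adjusted p = 0.804) and -0.65 ± 0.28 (adjusted p = 0.125). Of 9 B cell markers 3 were lower, where 18.3% of all genes were called. The mean B cell marker level ran between 2.79 and 3.05 after CpG ODN, against 3.16 to 3.99 after control ODN. Of 7 platelet markers 3 were lower, and their mean level ran between 1.75 and 2.17 after CpG ODN, against 2.21 to 3.19 after control ODN. The part of these cells in the member differences was not tested. Without CpG 3 h replicate 2 the Socs2 difference was 0.39 (adjusted p = 0.267), and without control ODN replicate 3 the Il6ra difference was -0.41 (adjusted p = 0.142). Il10ra, at -0.25 ± 0.31, and Cish, at -0.25 ± 0.23, did not pass (adjusted p = 0.627 and 0.508).

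In C57BL/6 mice Il6, Il10, Socs1 and Socs3 were higher 3 h after CpG ODN in TNF-KO and in control spleens. In TNF-KO spleens 4 of 8 members were called, all higher, against 3.77% of 14951 genes, and in C57BL/6 control spleens 5 of 8, of which 1 lower, against 7.72%. Socs3 levels in TNF-KO spleens after CpG ODN were 1.26, 1.75 and 2.70 in the 3 arrays with a value, against -1.34, -1.30, -1.17 and -1.14 in untreated TNF-KO spleens. In C57BL/6 control spleens they were 0.99, 1.09, 1.13 and 1.55 after CpG ODN, against -2.14, -1.82, -1.78 and -1.55 untreated. The groups were far apart in both genotypes, with differences of 3.14 ± 0.26 in TNF-KO mice (adjusted p = 7.65e-07) and 3.01 ± 0.24 in control mice (adjusted p = 6.63e-07).

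Il6 levels after CpG ODN were -0.17, 0.25, 0.66 and 1.40 in TNF-KO spleens, against -1.98, -1.97, -1.82 and -1.01 in untreated TNF-KO spleens. In C57BL/6 control spleens they were -0.40, 0.93, 0.94 and 1.08 after CpG ODN, against -1.79, -1.61, -0.98 and -0.93 untreated. Neither pair overlapped. The differences were 2.23 ± 0.35 in TNF-KO mice, or 4.69-fold (adjusted p = 0.00065), and 1.97 ± 0.35 in control mice, or 3.905-fold (adjusted p = 0.00154).

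Il10 was higher by 1.19 ± 0.23 in TNF-KO mice (adjusted p = 0.00373) and by 1.56 ± 0.23 in control mice (adjusted p = 0.000239). Its levels after CpG ODN were 0.09, 0.39, 0.54 and 1.07 in TNF-KO spleens, against -0.92, -0.89, -0.58 and -0.28 untreated, and 0.53, 0.69, 0.85 and 1.205 in control spleens, against -1.22, -0.72, -0.57 and -0.44 untreated. Socs1 was higher by 1.85 ± 0.26 in TNF-KO mice (adjusted p = 0.000238) and by 2.11 ± 0.26 in control mice (adjusted p = 5.3e-05). In neither gene did treated and untreated arrays of a genotype overlap for the representing probe. The other Socs1 probe, which had fewer values, gave 1.15 ± 0.43 in TNF-KO mice (adjusted p = 0.233) and 1.34 ± 0.47 in control mice (adjusted p = 0.112), and neither passed. With array run as a fixed block the Il10 difference in TNF-KO mice was 1.03 and narrowly missed the threshold (adjusted p = 0.0551).

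Il6ra was lower after CpG ODN in C57BL/6 control spleens, with levels of 0.09, 0.33, 0.65 and 0.72, against 1.04, 1.30, 1.34 and 1.38 untreated, a difference of -0.81 ± 0.19 (adjusted p = 0.0105). In TNF-KO spleens the levels were 0.13, 0.67, 0.70 and 0.85 after CpG ODN, against 0.53, 0.57, 0.78 and 0.93 untreated, and the difference of -0.11 ± 0.19 did not pass (adjusted p = 0.862). The TNF-KO groups overlapped, and the control groups did not. In control mice the other probes of Il6ra gave -0.91 ± 0.25 (adjusted p = 0.041) and -0.14 ± 0.23 (adjusted p = 0.8), so that 2 probes of 3 passed. In TNF-KO mice the same probes gave -0.09 ± 0.23 (adjusted p = 0.925) and -0.40 ± 0.23 (adjusted p = 0.504). Socs2, Cish and Il10ra passed in neither genotype, although all 4 Cish arrays of control spleens after CpG ODN, between 1.31 and 1.98, lay above the untreated ones, between 0.99 and 1.31 (difference 0.56 ± 0.25, adjusted p = 0.207). Of 12 neutrophil markers 7 were higher in TNF-KO spleens and 6 in control spleens after CpG ODN, against 3.77% and 7.72% of all genes called. Their mean level ran between 3.37 and 4.29 in TNF-KO spleens after CpG ODN, against 1.59 to 3.23 untreated, and between 3.82 and 4.79 in control spleens, against 2.71 to 3.27 untreated. In TNF-KO spleens 0 of 9 B cell markers and 3 of 13 monocyte and macrophage markers, all higher, passed. The mean B cell marker level was 3.31 to 3.43 in TNF-KO spleens after CpG ODN, against 3.54 to 4.07 untreated, and the mean monocyte and macrophage marker level 3.33 to 3.59, against 2.99 to 3.29. Their part in the member values was not tested.

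**Figure D3:**
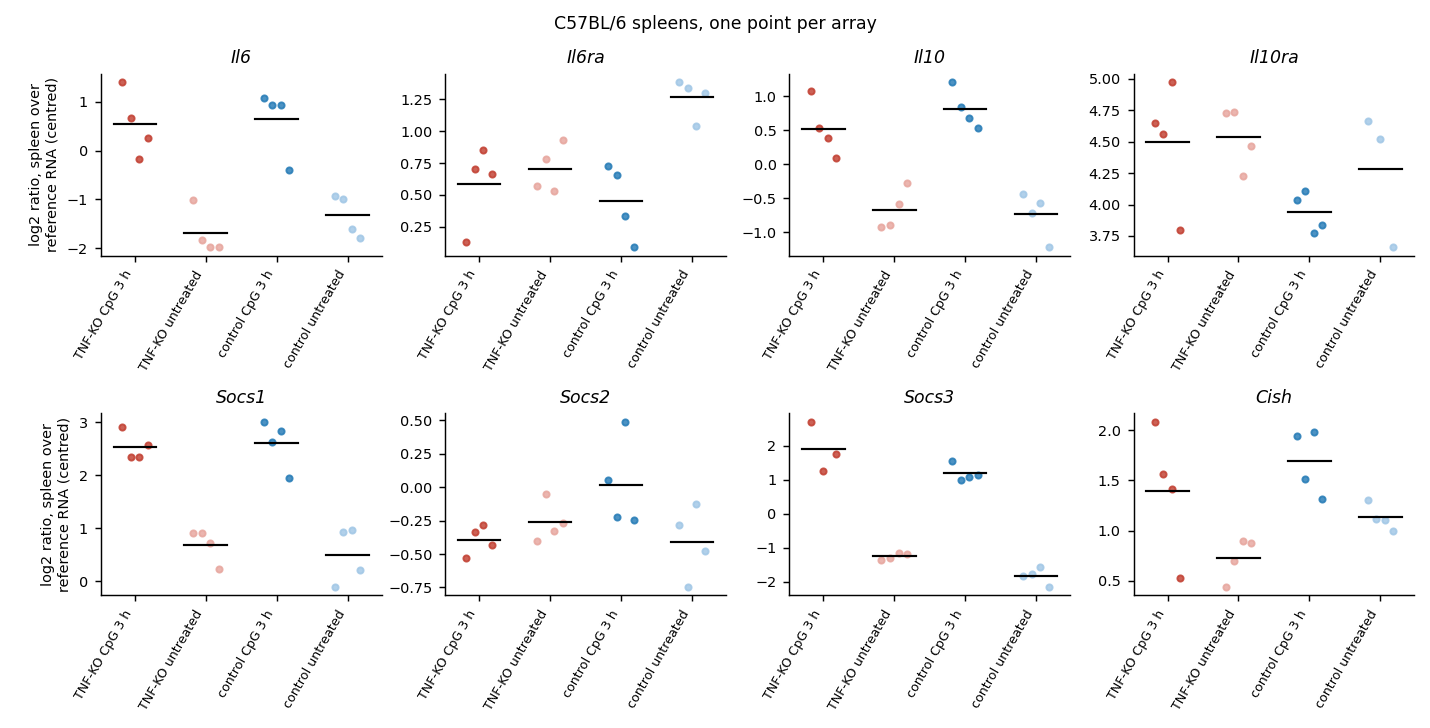
Levels (log2 ratio of spleen over reference RNA, y axis) of the 8 genes in every C57BL/6 array, for TNF-KO and control mice, 3 h after CpG ODN or untreated (x axis). Points are arrays and black bars group means. The representing probe of each gene is shown. Socs3, Il6, Il10 and Socs1 separate treated from untreated arrays in both genotypes, and Il6ra and, narrowly, Cish only in control mice.

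The difference between the genotypes was tested directly, and no member passed. At 3 h after CpG ODN 0 of 8 members differed between TNF-KO and control spleens, against 0.361% of genes called, and among untreated spleens 0 of 8, against 0.562%. For the difference of the CpG responses it was 0 of 8, against 0.0268%, or 4 genes of 14951. At an unadjusted p under 0.05 the difference of responses held for Il6ra, at 0.70 (95% interval 0.14 to 1.26, adjusted p = 0.508), and Socs2, at -0.56 (-1.10 to -0.02, adjusted p = 0.61). Ranked by p among the 14951 genes, Il6ra was at 496 and Socs2 at 1083. The probes of Il6ra did not agree here, as the other probes gave 0.82 (adjusted p = 0.584) and -0.26 (adjusted p = 0.883).

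For Il6 the CpG response in TNF-KO minus that in control mice was 0.27, with a 95% interval of -0.785 to 1.316. For Il10 it was -0.37 (-1.05 to 0.32), for Socs1 -0.26 (-1.047 to 0.525) and for Socs3 0.13 (-0.62 to 0.89). These intervals do not show that the responses are equal. Without C57BL/6 control CpG replicate 4, the lowest Il6 array of that group, the Il6 value turned to -0.08, and without TNF-KO CpG replicate 1 it was -0.02. It was also -0.08 with arrays weighted by quality and -0.07 with array run as a fixed block.

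Between the genotypes themselves several members had an unadjusted p under 0.05, and none passed after adjustment. Ranked by p among 14951 genes, Il6ra was at 531 and Socs3 at 1142 untreated. After CpG ODN Socs3 was at 766, Socs2 at 1471 and Il10ra at 1557, so many other genes had smaller p. Socs3 was nominally higher in TNF-KO spleens, by 0.72 ± 0.26 after CpG ODN (adjusted p = 0.274) and by 0.58 ± 0.24 untreated (adjusted p = 0.367). Il6ra was nominally lower in untreated TNF-KO spleens, by -0.56 ± 0.19 (adjusted p = 0.22). After CpG ODN it differed by 0.14 ± 0.19 (adjusted p = 0.812), so its difference of responses came with a difference between untreated spleens. The other probes of Il6ra gave -0.74 (adjusted p = 0.217) and 0.004 (adjusted p = 0.9975) in the untreated state. After CpG ODN Socs2 was nominally lower in TNF-KO spleens, by -0.41 ± 0.18 (adjusted p = 0.368), with no overlap of arrays, and Il10ra nominally higher, by 0.56 ± 0.25 (adjusted p = 0.375). In the untreated state the arrays of the genotypes did not overlap for Socs3, Il6ra or Cish (-0.40 ± 0.25, adjusted p = 0.579), and none of these genes passed. The share of all genes without overlap between these groups was not counted. The mean monocyte and macrophage marker level after CpG ODN ran between 3.33 and 3.59 in TNF-KO spleens, against 2.72 to 3.30 in control spleens. Among untreated spleens the mean erythroid marker level ran between 2.26 and 4.23 in TNF-KO spleens, against 4.08 to 5.13 in control spleens. The mean neutrophil marker level ran between 1.59 and 3.23 in untreated TNF-KO spleens, against 2.71 to 3.27 in untreated control spleens. The part of these cells in the member differences was not tested.

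Strain was compared in the same way. In untreated spleens 3 of 8 members were called higher in C57BL/6 control than in BALB/c mice, against 14.5% of all genes called. Cish levels were 0.99, 1.11, 1.12 and 1.31 in C57BL/6 control spleens, all above the BALB/c range of -0.43 to 0.40, a difference of 1.18 ± 0.22, or 2.26-fold (adjusted p = 0.000209). Il10ra was higher by 0.97 ± 0.30 (adjusted p = 0.0232) and Il6ra by 0.45 ± 0.16 (adjusted p = 0.0443). The Il10ra difference was 0.40 when arrays were scaled to the same spread (adjusted p = 0.443) and 0.78 without C57BL/6 control untreated replicate 1 (adjusted p = 0.144). The Il6ra call was lost without any of 9 of the 10 arrays, with adjusted p of up to 0.117, and the other probes of Il6ra gave 1.10 ± 0.25 (adjusted p = 0.00195) and -0.19 ± 0.20 (adjusted p = 0.57). Cell type markers differed between the same untreated groups. Of 10 dendritic cell markers 7 were higher in C57BL/6 control spleens, of 9 T cell markers 5 and of 13 monocyte and macrophage markers 4. The mean dendritic cell marker level ran between 2.50 and 2.92 in C57BL/6 control spleens, against 1.68 to 1.99 in BALB/c spleens. That of T cells ran between 2.94 and 3.15, against 1.99 to 2.48 in BALB/c spleens, and that of monocytes and macrophages between 3.09 and 3.25, against 2.33 to 2.92. The part of these cells in the member differences was not tested. Strain and array run cannot be told apart, as no run held arrays of both strains.

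The response to CpG ODN at 3 h differed between strains for 0 of 8 members, against 0.453% of 15219 genes. The response of Il6 in C57BL/6 control mice minus that in BALB/c mice was -1.34 (95% interval -2.377 to -0.305, unadjusted p = 0.0124 from the limma fit, adjusted p = 0.505). For Il6ra it was -0.57 (-1.034 to -0.103, unadjusted p = 0.0178 from the limma fit, adjusted p = 0.585). The other probes of Il6ra gave -0.55 (adjusted p = 0.925) and 0.10 (adjusted p = 0.9985). For Socs3 it was -0.32 (-1.03 to 0.40), for Socs1 -0.01 (-0.82 to 0.80) and for Il10 -0.09 (-0.78 to 0.60).

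**Figure D4:**
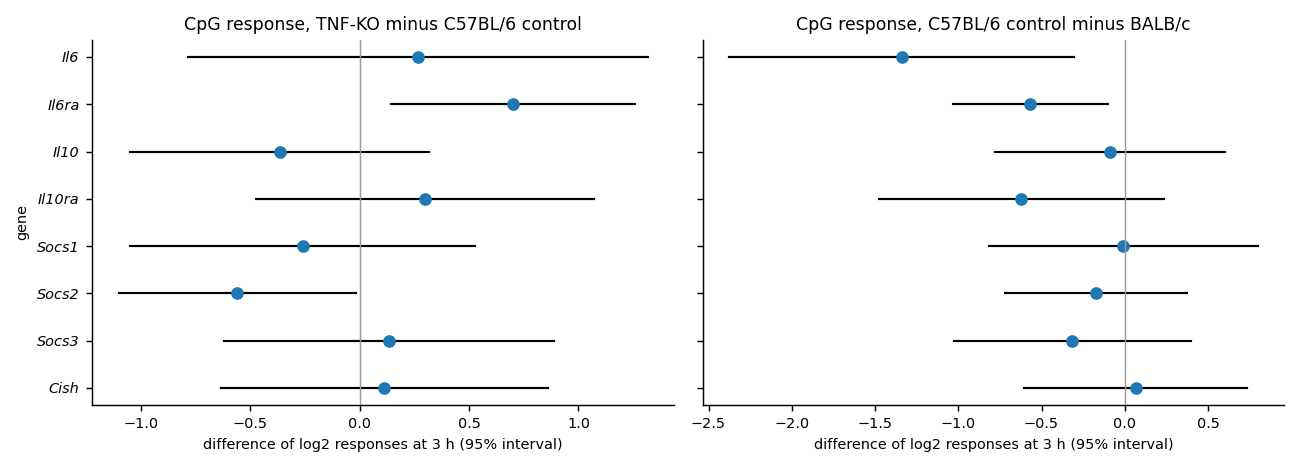
Differences between groups in the log2 response to CpG ODN at 3 h (x axis) for the 8 genes (y axis), TNF-KO minus C57BL/6 control on the left and C57BL/6 control minus BALB/c on the right. Points are limma estimates and lines 95% intervals. Intervals that leave out 0 are those of Il6ra and Socs2 on the left and, on the right, those of Il6, between -2.377 and -0.305, and Il6ra, between -1.034 and -0.103.

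Of 9 measured ligand genes of the IL-6 family 3 were higher at 1 h, where 3.3% of all genes were called: Il6, Clcf1 (0.77 ± 0.19, adjusted p = 0.0149) and Ebi3 (0.77 ± 0.19, adjusted p = 0.0155). Clcf1 encodes a ligand of the ciliary neurotrophic factor receptor and Ebi3 a subunit shared by several cytokines of the IL-12 family. At 3 h Il6 and Ebi3 (0.90 ± 0.19, adjusted p = 0.00119) were higher, where 9.96% of all genes were called. The median difference over the 9 ligands was -0.04 at 1 h and 0.025 at 3 h, against 0.05 and -0.03 over all genes.

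Among 6 measured receptor genes of that family Osmr, the oncostatin M receptor chain, was the only one called higher against untreated BALB/c spleens, by 0.98 ± 0.19 at 1 h (adjusted p = 0.00136), 1.97 ± 0.19 at 3 h (adjusted p = 1.74e-09) and 0.70 ± 0.19 at 9 h (adjusted p = 0.0182). Of all genes, 3.3%, 9.96% and 6.96% were called at these times. Il6st, the gene of gp130, had differences of -0.10 ± 0.15 at 1 h and 0.40 ± 0.15 at 3 h that did not pass (adjusted p = 0.788 and 0.0819), and it was higher at 3 than at 1 h by 0.50 ± 0.16 (adjusted p = 0.043). Il10rb had 0.56 ± 0.21 at 1 h and -0.53 ± 0.21 at 3 h (adjusted p = 0.144 and 0.114), and between these times it was lower at 3 h by -1.085 ± 0.22 (adjusted p = 0.00141). Ifnlr1, the interferon lambda receptor chain that pairs with the product of Il10rb, was higher at 3 h by 1.87 ± 0.28 (adjusted p = 8.45e-06). It was higher in TNF-KO mice by 1.15 ± 0.24 (adjusted p = 0.00841) and in C57BL/6 control mice by 1.74 ± 0.24 (adjusted p = 0.000145).

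Of 10 measured JAK and STAT genes 4 were higher at 3 h in BALB/c spleens, where 9.96% of all genes were called, and the median difference over the 10 was 0.72, against -0.03 over all genes. They were Stat2 (2.03 ± 0.16, adjusted p = 1.25e-11), Tyk2 (1.23 ± 0.20, adjusted p = 3.32e-05), Jak3 (1.04 ± 0.21, adjusted p = 0.000772) and Stat3 (1.37 ± 0.33, adjusted p = 0.00416). TYK2 serves the interferon, IL-10 and IL-12 receptors, and JAK3 those that use the common gamma chain. In C57BL/6 control spleens Stat2, Tyk2 and Stat3 were higher, and in TNF-KO spleens Stat2 (1.89 ± 0.23, adjusted p = 2.79e-05). Of all genes, 7.72% were called in control and 3.77% in TNF-KO spleens. A call in only 1 genotype is not a test of a difference between genotypes. At 1 h, where 3.3% of all genes were called, only Stat4, of this list, passed (1.18 ± 0.25, adjusted p = 0.00318).

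The remaining SOCS genes stayed below the threshold against untreated BALB/c spleens. At 3 h the differences were -0.25 ± 0.22 for Socs4, 0.33 ± 0.28 for Socs5, 0.24 ± 0.20 for Socs6 and 0.03 ± 0.20 for Socs7, with adjusted p between 0.582 and 0.957. Among 11 other inhibitors of JAK-STAT signalling the median difference at 3 h was 0.10, against -0.03 over all genes. Of the 11, 3 were higher, where 9.96% of all genes were called. These were Usp18, which restrains type I interferon signalling (4.01 ± 0.25, adjusted p = 2.29e-14), and the phosphatase genes Ptpn2 (0.83 ± 0.16, adjusted p = 0.000393) and Ptpn1 (0.84 ± 0.24, adjusted p = 0.0199).

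A list of 21 genes known to respond to STAT3 held more calls at 1, 3 and 9 h than at 0.5, 24 or 72 h. The list was chosen with earlier results of these data known, and whether STAT3 acted on these genes was not tested. Of the 21 genes, all measured, 2 were higher at 0.5 h, 10 at 1 h, 12 at 3 h, 9 at 9 h and 4 at 24 h, with none lower, and at 72 h 1 was higher and 3 lower. The shares of all genes called at these times were 0.256%, 3.3%, 9.96%, 6.96%, 8.44% and 10.6%. The median difference over the 21 genes was 0.86 at 1 h, 1.09 at 3 h and 0.57 at 9 h, against 0.05, -0.03 and -0.02 over all genes. After control ODN, where 1.42% of all genes were called, 2 of 21 were higher, Hp (1.80 ± 0.29, adjusted p = 0.00609) and Lrg1 (1.59 ± 0.31, adjusted p = 0.0235). In C57BL/6 mice 11 were higher in TNF-KO spleens, against 3.77% of all genes called, and 13 in control spleens, against 7.72%.

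Single STAT3 response genes had different times. Junb, an immediate early gene, was higher at 0.5 h by 1.65 ± 0.26 (adjusted p = 0.000263) and at 1 h by 2.33 ± 0.26 (adjusted p = 9.54e-08). Cebpb, a factor of acute phase genes, was higher at 1 h by 1.65 ± 0.20 (adjusted p = 8.59e-07). Timp1, a protease inhibitor, was higher at 3 h by 1.43 ± 0.17 (adjusted p = 8.09e-08). Saa3, an acute phase protein, was higher at 3 h by 1.97 ± 0.27 (adjusted p = 1.51e-06) and at 9 h by 2.64 ± 0.27 (adjusted p = 6.47e-09).

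**Figure D5:**
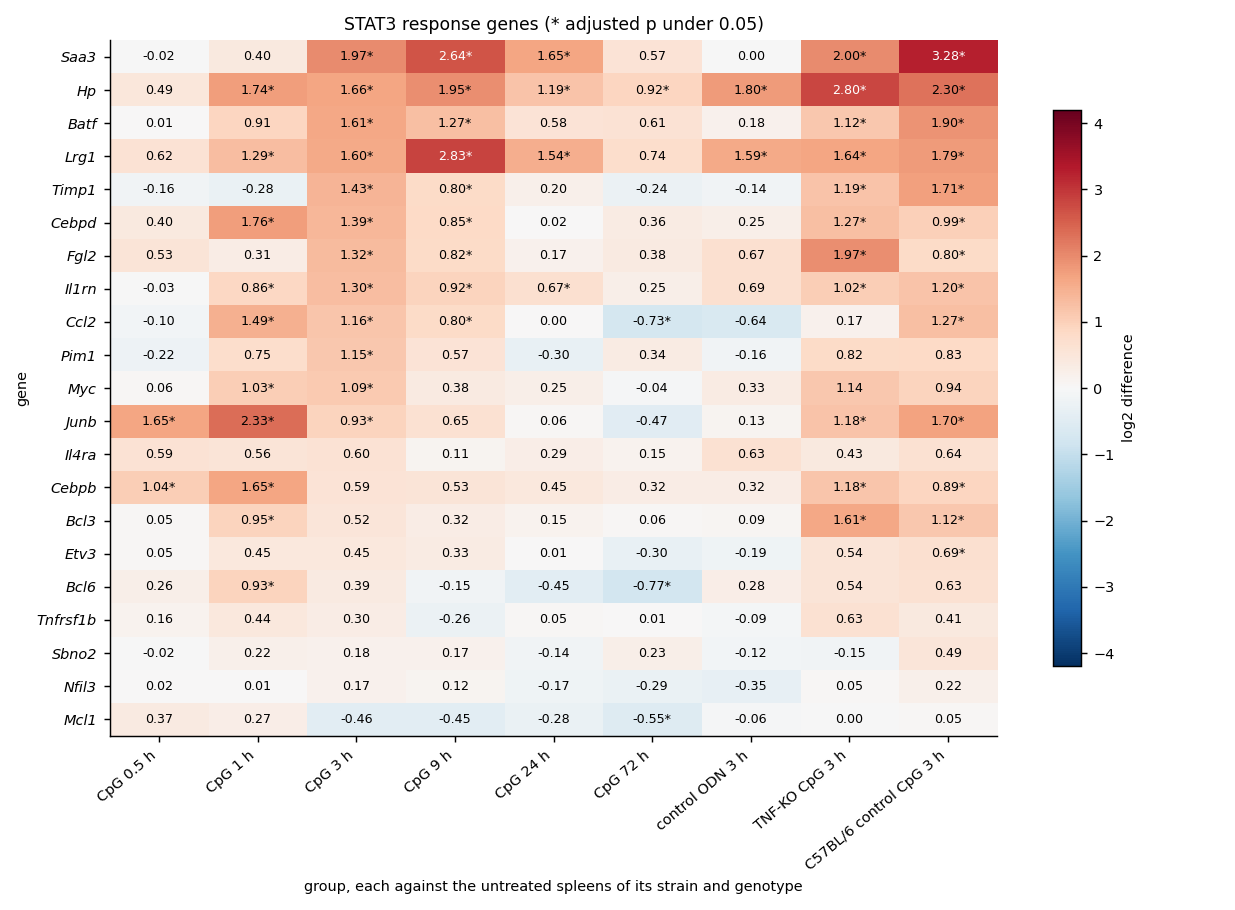
Log2 differences of the 21 measured STAT3 response genes (rows, ordered by the 3 h value) from untreated spleens of the same strain and genotype in 9 groups (columns), with a star for an adjusted p under 0.05. Junb is highest at 1 h, at 2.33, and Saa3 and Lrg1 at 9 h within the BALB/c time course, at 2.64 and 2.83.

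Interferon-stimulated genes, which SOCS1 restrains, were measured for 17 of the list. Of these 8 were higher at 1 h, 17 at 3 h, 16 at 9 h, 15 at 24 h and 14 at 72 h, against 3.3%, 9.96%, 6.96%, 8.44% and 10.6% of all genes called at these times. The median difference over the 17 at 3 h was 3.13, against -0.03 over all genes. Stat2 and Usp18 are in this list too. Genes of cytokines that use STAT5 and their responses passed for 5 higher and 1 lower of 20 at 3 h, with a median difference of 0.05, against -0.03 over all genes. Among them were Il15 (2.04 ± 0.19, adjusted p = 8.37e-10), Il15ra (2.24 ± 0.23, adjusted p = 6.98e-09) and the cell cycle gene Ccnd2 (1.40 ± 0.33, adjusted p = 0.00322), and Il7 was lower (-0.88 ± 0.21, adjusted p = 0.00368). At 1 h, when Cish passed, 1 of the 20 did, Il15ra.

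Likeness over the 12 group means was described by Pearson's r among 1646 genes with a spread of the means of at least 0.5. Groups share reference RNA and strain, so r has no p here. Il6 was most like Gadd45b, Ccl3 and Gpr85 (r = 0.95, 0.95 and 0.94). Socs3 was most like Icam1, Map3k8 and Ccl3 (r = 0.96, 0.96 and 0.95), of which Ccl3 is a chemokine gene shared with Il6. Il10 was most like Ms4a4d, Oasl1 and Ccl12 (r = 0.96, 0.94 and 0.94), and Socs1 most like Slfn8, Mx1 and Hdc (r = 0.96 each). Mx1 and Oasl1 are interferon-stimulated genes.

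For Cish the nearest genes were Foxp4, Gramd1a and Nfkb2 (r = 0.92, 0.92 and 0.91), and for Il10ra Gnal, Cyp27a1 and Apoe (r = 0.94, 0.93 and 0.90). Socs2 had Fscn1, Inhbb and Olfr100 (r = 0.85, 0.82 and 0.81) and Il6ra St18, H1f2 and B3gnt8 (r = 0.77, 0.76 and 0.74). Over single arrays the same pairs had lower r, for example 0.88 for Il6 with Gadd45b over 50 arrays, 0.90 for Socs3 with Icam1 over 48 and 0.56 for Il6ra with St18 over 49.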

How the data were processed

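Per the series text, the authors background-corrected the arrays, removed flagged spots and spots with both signals low, took log2 ratios of spleen (Cy5) over reference RNA (Cy3) and applied lowess normalization within each array. The deposited values are these log2 ratios, with 1 array per sample. Signal intensities were not used here, so depth over background is unknown, and the number of arrays limits the precision. Replicates are, per the series text, independent experiments. The sources used here do not name the build behind the probes.

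Each array was centred on its median. Probes present on over 70% of arrays were kept, and the probe with most values, the first listed on ties, represented a gene. Group differences were fitted with limma 3.58.1 (R 4.3.3; lmFit, eBayes) over the BALB/c arrays, the C57BL/6 arrays or, between strains, all 50 arrays, with Benjamini-Hochberg adjustment over all genes and a threshold of 0.05. The steps were tested on simulated data. The 8 members, the gene lists and the tests were chosen with earlier results of these data known. Named list genes are at most 4 per list and comparison, by smallest p, among those called, plus Il6st, Il10rb and the SOCS genes with their values. Arrays of the 0.5 h group give spleen RNA as channel 1, where all others give it as channel 2, with the dyes unchanged, so no sign was turned. Alternatives were scaling to the same spread, other uses of probes, array weights, replicate, run or pancreas transcripts in the model, only the compared groups, and leaving out each array.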

Additional observations from a re-analysis of the deposited data

Results flagged for a closer look

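Within single groups, 3 arrays lay far from the others of their group for a member, of 124 sets of 4 to 6 arrays looked at by Dixon's test, which flags about 1 in 20 by chance. Il6 in untreated TNF-KO spleens was -1.01 in replicate 1, against -1.98 to -1.82 in the other arrays. Il6 in C57BL/6 control spleens after CpG ODN was -0.40 in replicate 4, against 0.93 to 1.08. Socs3 at 72 h after CpG ODN in BALB/c spleens was -2.11 in replicate 4, against -1.51 to -1.48.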

How the results depend on the processing

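Of 49 member calls, 30 were kept without any single array and 23 under all other alternatives, and none changed direction. Of 111 values that were not called, 104 stayed so without any single array and 100 under the other alternatives. With the run as a fixed block, an alternative added after seeing the data, the number of members called was 0 at 9 h, 0 at 24 h and 0 at 3 against 1 h, and 1 at 9 against 3 h. It could not be fitted at 72 h, for control ODN or between untreated strains. Array weights gave 2 at 0.5 h, 2 for control ODN against untreated spleens, 1 at 24 against 9 h and 1 at 72 against 24 h. Fitting only the compared groups gave 0 for control ODN, 1 at 9 against 3 h and 1 at 24 against 9 h. For control ODN the count was also 0 with arrays scaled to the same spread, with the mean over probes, with each probe on its own and with the run as a random block. Samples with the same replicate number deviated together in some pairs and not in others, with r between -0.315 and 0.458. Samples with different numbers were not looked at, so whether the numbers pair the arrays cannot be told. With the replicate block, members called numbered 2 at 1 h, 0 at 72 h and 0 for control ODN. Leaving out 1 array at a time, the number of members called ran between 0 and 1 at 0.5 h, 2 and 5 at 1 h, 2 and 4 at 24 h, 1 and 3 at 72 h and 0 and 2 for control ODN. Between times it ran between 0 and 3 at 3 against 1 h, 0 and 2 at 9 against 3 h, 1 and 2 at 24 against 9 h and 0 and 1 at 72 against 24 h, and for untreated C57BL/6 control against BALB/c spleens between 1 and 2. Signal over background was not used here, so no limit for dim spots is given.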
